A study of Mus musculus with 2 samples.

Results

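The Mir181 family of the mouse comprises 6 microRNA genes in 3 clusters, Mir181a-1 with Mir181b-1, Mir181a-2 with Mir181b-2, and Mir181c with Mir181d. The members were chosen by name from the gene annotation, and all 6 were among the 1973 microRNA genes counted. They were also selected with earlier results of these libraries known, among them the ratio of Mir181b-2 between the hearts and its shared sequence. All levels and ratios given here are therefore descriptions without a test. The libraries came from whole hearts of newborn B6NCrl mice, a C57BL/6N substrain, at postnatal day 0, without treatment or genetic change in the labels and with sex not recorded. There is 1 group of 2 libraries, made from total RNA with molecules under 30 nt. By the labels replicate 1 is the heart of pup 1 and replicate 2 the heart of pup 3. The labels also give both the same donor identifier, and they were taken as separate animals from the pup numbers. Every SD and every ratio between the hearts rests on that reading. Since each heart gave 1 library, a difference between the hearts and one between library preparations cannot be told apart, and in a whole organ fewer cells of a type and less RNA per cell cannot be told apart either.

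MicroRNAs are cut from hairpin precursors, whose 5′ and 3′ sides each give a short mature arm. The arm loaded into Argonaute pairs with target messages mainly through its seed, bases 2 to 8, so that microRNAs with the same seed share many targets. The Mir181 family is best known in developing lymphocytes, where miR-181a sets the sensitivity of T cell receptor signalling. In blood vessels miR-181b restrains NF-κB signalling by repressing importin-α3, and in cardiomyocytes miR-181c has been found in mitochondria, where it represses the cytochrome c oxidase subunit mt-Co1.

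The mature sequences are shown first because the counts depend on which arms occur in more than 1 gene. RefSeq (GRCm38.p6) held mature arms for all 6 genes, 12 entries in all. The 5′ arms follow, 5′ to 3′, with the seed in capitals.
miR-181a-5p, from Mir181a-1 and Mir181a-2: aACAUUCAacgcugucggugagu
miR-181b-5p, from Mir181b-1 and Mir181b-2: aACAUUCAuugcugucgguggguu
miR-181c-5p, from Mir181c: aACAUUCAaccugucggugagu
miR-181d-5p, from Mir181d: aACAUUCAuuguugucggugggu

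All 6 genes shared the 5′ seed ACAUUCA. Of 1738 mature entries in the RefSeq table, 6 began with that seed at base 2, and these were the Mir181 genes, with 4 distinct sequences. Outside the seed the 5′ arms formed a pair of types. The arms of miR-181a and miR-181c were 1 edit apart (a base changed, gained or lost), and those of miR-181b and miR-181d 2 edits apart, of which 1 was the substitution C12U (positions from the 5′ end of the arm, miR-181b first) and the other the last base of the longer arm. Between the types the arms were 4 or 5 edits apart. Each cluster held 1 gene of each type, with the a or c gene upstream of the b or d gene.

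The 3′ arms are shown because they told all 6 genes apart, again with bases 2 to 8 in capitals.
miR-181a-1-3p: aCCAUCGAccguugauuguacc
miR-181a-2-3p: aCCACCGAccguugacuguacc
miR-181c-3p: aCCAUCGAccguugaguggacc
miR-181b-1-3p: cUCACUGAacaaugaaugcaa
miR-181b-2-3p: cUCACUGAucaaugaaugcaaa
miR-181d-3p: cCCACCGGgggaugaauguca

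Each 3′ arm occurred in 1 of the 2202 annotated mouse microRNA hairpins searched. The 3′ arms of the a genes differed by the substitutions U5C and U16C (miR-181a-1-3p first). Those of the b genes were 2 edits apart, with the substitution A9U (miR-181b-1-3p first). By 3′ seed Mir181a-1 and Mir181c formed a group, Mir181b-1 and Mir181b-2 another, and Mir181a-2 and Mir181d each stood alone.

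The shared stretch of the paired copies was longer than the mature arm. RefSeq hairpins were matched for 5 of the 6 genes, the exception being Mir181c. In the hairpins of the a genes and of the b genes, written 5′ to 3′, the longest run common to both copies is in capitals.
Mir181a-1: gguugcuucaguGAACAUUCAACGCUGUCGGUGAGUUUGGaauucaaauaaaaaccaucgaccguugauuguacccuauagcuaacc
Mir181a-2: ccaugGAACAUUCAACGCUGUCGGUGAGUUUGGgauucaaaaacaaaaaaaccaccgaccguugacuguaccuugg
Mir181b-1: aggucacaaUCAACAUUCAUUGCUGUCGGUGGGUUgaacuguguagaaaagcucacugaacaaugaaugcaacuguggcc
Mir181b-2: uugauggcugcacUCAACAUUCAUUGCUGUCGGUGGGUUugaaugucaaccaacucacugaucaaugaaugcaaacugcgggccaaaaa

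The run was 28 nt long in the a genes, with 1 base before the 23 nt arm and 4 after it. In the b genes it was 26 nt long, with 2 bases before the 24 nt arm and 0 after it. The first bases past the run differed by A28G in the a genes (Mir181a-1 first) and by G25U in the b genes (Mir181b-1 first), counted from the first base of the mature arm. A read that lies wholly within such a run matches both copies. The deposited tables list reads that matched several places in a row of their own, 4974412 reads in replicate 1 and 5980508 in replicate 2, and these are not divided among genes. That row was 163-fold and 148-fold the whole Mir181 count, and how many of its reads came from Mir181 genes was not tested. The tables give 1 count per gene and do not separate the arms. A read of exactly miR-181a-5p or miR-181b-5p lies within such a run, so it is not in the counts of the a and b genes. These counts are therefore not measures of those arms, while both arms of Mir181c and Mir181d occurred in 1 annotated hairpin.

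The clusters differed in spacing and in host genes (mm10). Mir181a-1 (chr1:137966455-137966541) and Mir181b-1 (chr1:137966639-137966718) lie on the plus strand with 97 bp between them, within the noncoding gene Gm4258 of the same strand. Both overlap an exon of the noncoding gene A430106G13Rik on their strand, and the noncoding gene Gm26936 runs opposite. Mir181a-2 (chr2:38852735-38852810) and Mir181b-2 (chr2:38853830-38853918), also on the plus strand, are 1019 bp apart. They lie within Nr6a1, which encodes an orphan nuclear receptor, but on the opposite strand, and Mir181b-2 also lies opposite an exon of Gm44144. Mir181c (chr8:84178873-84178961) and Mir181d (chr8:84178716-84178787) lie on the minus strand with 85 bp between them, in intronic sequence of Nanos3, an RNA-binding protein gene of the germ line, on its strand. Mir23a, the first gene of the Mir23a, Mir27a and Mir24-2 cluster, lies 29556 bp from Mir181c on the other strand.

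**Figure D1:**
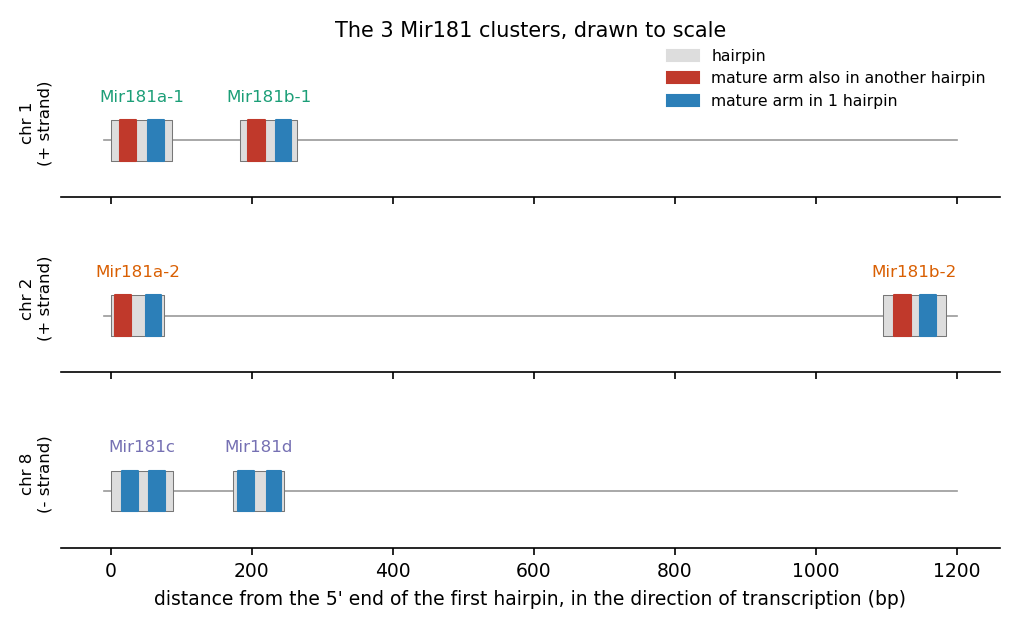
Map of the 3 Mir181 clusters, with the distance in bp from the 5′ end of the first hairpin on the x axis and 1 row per chromosome. Grey boxes are hairpins, red boxes mature arms that also occur in another hairpin and blue boxes arms found in 1 hairpin. The red boxes are the 5′ arms of the 4 a and b genes, and the chromosome 2 cluster is the widely spaced one, with 1019 bp between its hairpins.

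The libraries held 6373797 and 7630427 gene counts on the sense strand. Levels are given as CPM, counts per 1000000 of these counts. The level of 3 counts was 0.471 and 0.393 CPM. It is about the 95% limit for a count of 0, taken on the upper side only. By the labels the molecules were under 30 nt, shorter than the hairpins of 72 to 89 nt, so counts were not divided by hairpin length. The order of the 6 genes was the same per nucleotide of hairpin. Of the markers of the labelled tissue, the cardiomyocyte genes Mir208a, Mir208b and Mir499 stood together at 122248 and 124984 CPM. Most of this came from Mir208b, at 101723 and 108150 CPM. The endothelial gene Mir126a alone had 144115 and 122186 CPM. Intervals here are 95% intervals for counting error only.

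The whole family took 30458 counts in replicate 1 and 40468 in replicate 2. By exact Clopper-Pearson intervals this was 0.478% (0.473 to 0.483) of gene counts in the first heart and 0.530% (0.525 to 0.536) in the second, a mean of 0.504% ± 0.0371 (SD, n = 2). The family was 1.11-fold higher in replicate 2 (1.09 to 1.13). On the opposite strand all 6 genes had 0 counts in both libraries.

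Mir181c (ENSMUSG00000065483.1) had the most counts of the members, 14267 and 17186. Its level was 2238 CPM in replicate 1 and 2252 CPM in replicate 2, a mean of 2245 ± 9.84 (SD, n = 2), and it ranked 44 and 45 among all genes counted. The hearts were close for this gene. Its neighbour Mir181d (ENSMUSG00000076338.1) had 7577 and 11590 counts, or 1189 and 1519 CPM, a mean of 1354 ± 233. Replicate 2 was the higher library for Mir181d, and the gene ranked 65 and 62.

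Mir181a-1 (ENSMUSG00000065565.1), whose 5′ arm is the lymphocyte microRNA miR-181a, followed with 5937 and 5960 counts. These were 931 CPM in replicate 1 and 781 CPM in replicate 2, a mean of 856 ± 106, so that nearly equal counts stood for a lower level in the deeper library. Mir181b-1 (ENSMUSG00000065458.1), the next hairpin downstream, had 28 and 64 counts, or 4.39 and 8.39 CPM, a mean of 6.39 ± 2.82. It was the lowest member in both hearts, yet above the level of 3 counts.

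On chromosome 2 the order within the cluster was the other way round. Mir181a-2 (ENSMUSG00000065423.1) had 366 and 425 counts, or 57.4 and 55.7 CPM, a mean of 56.6 ± 1.22. Mir181b-2 (ENSMUSG00000065578.1) had 2283 and 5243 counts, or 358 and 687 CPM, a mean of 523 ± 233. Mir181b-2 ranked 108 in replicate 1 and 85 in replicate 2.

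By level the order was Mir181c, Mir181d, Mir181a-1, Mir181b-2, Mir181a-2 and Mir181b-1 in both hearts, and the values of no 2 neighbours in this order overlapped. Mir181a-1 and Mir181b-2 came close in replicate 2. The excess of Mir181a-1 over Mir181b-2 was 2.60-fold in the first heart and 1.14-fold in the second, and the means differed by 334 CPM, against SDs of 106 and 233. Mir181c exceeded Mir181d by 1.88-fold and 1.48-fold, and Mir181d exceeded Mir181a-1 by 1.28-fold and 1.94-fold. Below them the steps were wider, with Mir181b-2 above Mir181a-2 by 6.24-fold and 12.3-fold, and Mir181a-2 above Mir181b-1 by 13.1-fold and 6.64-fold. The members share the libraries, so these comparisons are not independent. Reads within the shared 5′ arms are missing from the a and b genes, so the order is one of gene counts and not of mature microRNAs.

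**Figure D2:**
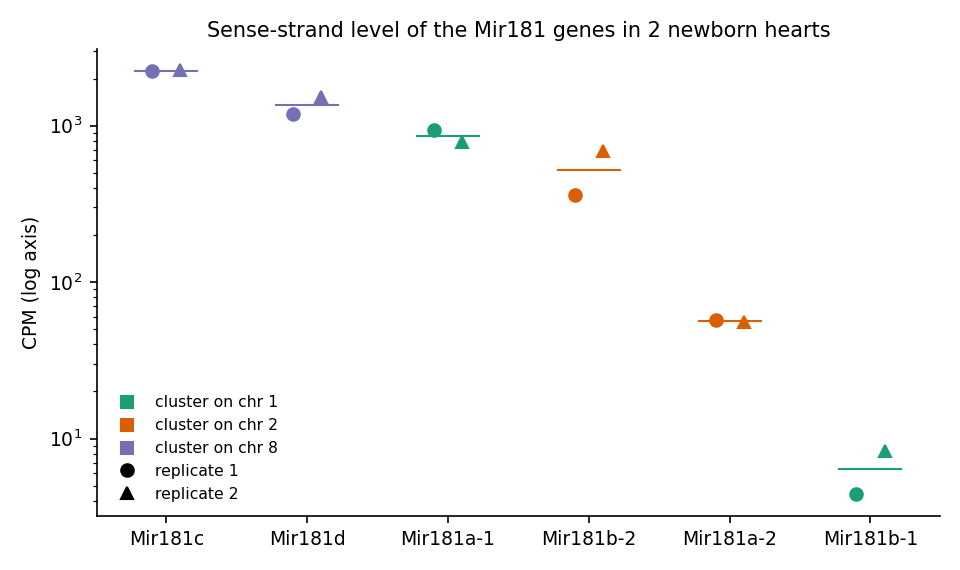
Level of each Mir181 gene in CPM on a log axis, with circles for replicate 1, triangles for replicate 2, a line at the mean of the 2 hearts and colours for the cluster. The genes run from 2245 CPM for Mir181c to 6.39 CPM for Mir181b-1, and the hearts lie farthest apart on this axis for Mir181b-2 and Mir181b-1.

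The genes outside the family nearest in level, by Euclidean distance of log2(CPM + 1) over the 2 libraries, were Mir100 for Mir181c at a distance of 0.12, Mir342 for Mir181d at 0.16, Mir434 for Mir181a-1 at 0.10, Mir301b for Mir181a-2 at 0.09 and Mir6900 for Mir181b-1 at 0.27. Mir181b-2 had the most distant neighbour, Mir16-2 at 0.46, which had 384 and 505 CPM. With 2 libraries this measure reflects the level and the ratio between the hearts.

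The chromosome 8 cluster held most of the family's counts. Mir181c and Mir181d together took 71.7% (Clopper-Pearson interval 71.2 to 72.2) of the Mir181 counts in the first heart and 71.1% (70.7 to 71.5) in the second, a mean of 71.4% ± 0.432. The chromosome 1 cluster took 19.6% (19.1 to 20.03) and 14.9% (14.5 to 15.2), a mean of 17.2% ± 3.32, nearly all of it from Mir181a-1. The chromosome 2 cluster took 8.70% (8.38 to 9.02) and 14.0% (13.7 to 14.3), a mean of 11.4% ± 3.75, mostly from Mir181b-2. The share of chromosome 8 was thus nearly the same in both hearts, while that of chromosome 1 was lower and that of chromosome 2 higher in replicate 2. The chromosome 8 cluster exceeded that of chromosome 1 by 3.66-fold and 4.78-fold and that of chromosome 2 by 8.25-fold and 5.08-fold. The ratio of chromosome 1 to chromosome 2 was 2.25 in replicate 1, against 1.06 in replicate 2. In the clusters on chromosomes 1 and 2 the 5′ arms occur in another hairpin, as shown by the sequences above, so the shares describe reads placed in 1 gene and not the output of each cluster.

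**Figure D3:**
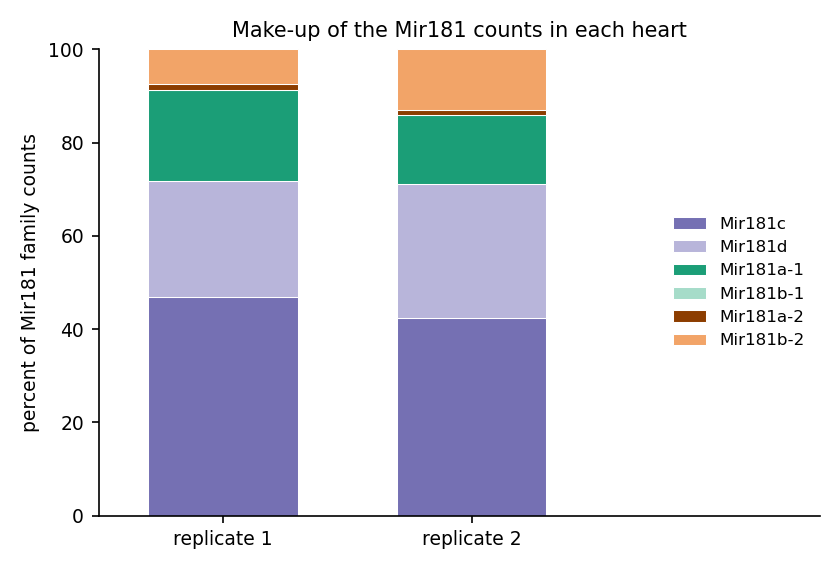
Percent of all Mir181 counts (y axis) from each gene in each heart, stacked by cluster. Mir181c and Mir181d fill 71.7% and 71.1% of the bars, while Mir181b-2 goes from 7.496% in replicate 1 to 12.96% in replicate 2.

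Within the clusters the neighbours were unequal by different amounts. Mir181a-1 had 212 times the counts of Mir181b-1 in replicate 1 (interval 147 to 319) and 93.1 times in replicate 2 (72.8 to 121), a mean log2 ratio of the b over the a gene of -7.13 ± 0.84 (SD, n = 2). For Mir181b-2 over Mir181a-2 the ratio was 6.24 (5.58 to 6.98) and 12.3 (11.2 to 13.7), a mean log2 ratio of 3.13 ± 0.70. For Mir181d over Mir181c it was 0.531 (0.516 to 0.546) and 0.674 (0.659 to 0.691), a mean log2 ratio of -0.74 ± 0.24. The a gene thus led on chromosome 1 and the b gene on chromosome 2. Reads within the shared 5′ arms match both copies, so on these chromosomes the ratios describe only reads placed in 1 gene.

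Between the hearts the b genes had the widest ratios of the 6 members. Mir181b-2 was 1.92-fold higher in replicate 2 (interval 1.83 to 2.02), a log2 ratio of 0.94, and Mir181b-1 was 1.89-fold higher with 0.5 counts added (interval of the plain ratio 1.21 to 3.09), a log2 ratio of 0.92. Mir181d was 1.28-fold higher in replicate 2 (1.24 to 1.32). Mir181c had a ratio of 1.01 (0.984 to 1.03) and Mir181a-2 of 0.970 (0.841 to 1.12), and both intervals include 1. Mir181a-1 was lower in replicate 2, with a ratio of 0.839 (0.809 to 0.869). The interval of Mir181b-1 is wide because it rests on 92 counts.

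With 1 library per heart, a gene was called when its ratio passed 1.5-fold, with 0.5 counts added. Of the 435 genes that reached 10 counts over both libraries, 13.8% were called in either direction and 7.59% were higher in replicate 2. Among the members 2 of 6 were called, Mir181b-1 and Mir181b-2, both higher in replicate 2. Since the ratio of Mir181b-2 was known when the family was chosen, nothing is read from this count. By the size of the ratio Mir181b-2 ranked 28 and Mir181b-1 ranked 30 of the 435 genes. Large ratios were mostly found at few counts, as 9 of the 275 genes with 100 or more counts passed 1.5-fold. At 1.2-fold higher in replicate 2 there were 3 members, the b genes and Mir181d, against 25.1% of all genes. The median log2 ratio was 0.18 over the 6 members and 0.02 over the 435 genes.

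**Figure D4:**
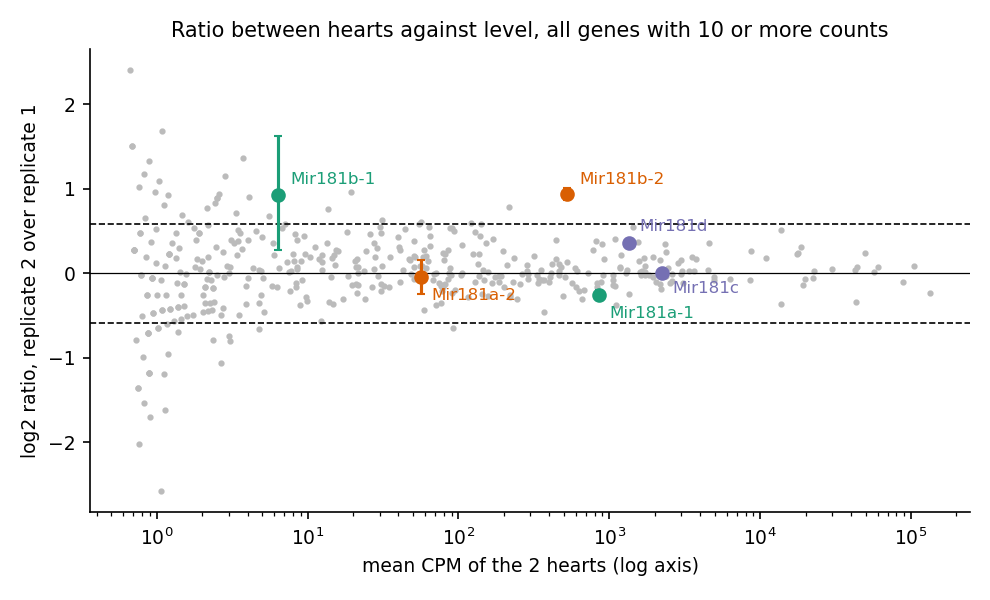
Log2 ratio of replicate 2 over replicate 1 against mean CPM on a log axis for the 435 genes with 10 or more counts, with 0.5 counts added for the grey genes and plain ratios with 95% counting intervals for the coloured Mir181 genes. Dashed lines mark 1.5-fold, and Mir181b-2 and Mir181b-1 lie above the upper line while the other members lie between the lines.

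Summed by the type of the 5′ arm, the ratios between the hearts lay on opposite sides of 1. Reads within the 5′ arms of the a and b genes match both copies and are not in these counts. Those of the c and d genes occur in 1 annotated hairpin, so the sums group genes and do not measure 5′ arms. The b and d genes together had 1551 CPM in replicate 1 and 2214 CPM in replicate 2, a ratio of 1.43 (1.39 to 1.46). The a and c genes together had 3227 and 3089 CPM, a ratio of 0.957 (0.939 to 0.975). The b and d genes made up 32.5% of the Mir181 counts in replicate 1 and 41.8% in replicate 2. The 2 b genes, on different chromosomes, had ratios of 1.92 and 1.89, and their summed ratio of 1.92 was nearly that of Mir181b-2 alone, which held most of the counts. Genes with a mature arm in another annotated hairpin passed 1.5-fold in 9 of 51 cases, or 17.6%, and genes with single-copy arms in 46 of 345 cases, or 13.3%. The 51 genes include the a and b genes of Mir181, and the 9 include both b genes, so nothing is read from this comparison. The classes used only the mature arms that RefSeq lists under the gene's own name. A gene whose copied arm is not listed there can thus stand in the single-copy class. The 39 genes without a mature entry were in neither class.

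Ratios between neighbours do not depend on the library total. In all 3 clusters the downstream gene was higher relative to the upstream gene in replicate 2 than in replicate 1. The change of the ratio was 2.25-fold for Mir181b-1 over Mir181a-1 (interval 1.45 to 3.51), 1.98-fold for Mir181b-2 over Mir181a-2 (1.71 to 2.29) and 1.27-fold for Mir181d over Mir181c (1.22 to 1.32). For comparison, 103 pairs of neighbouring microRNA genes were measured, on the same strand with starts within 10 kb and 10 or more counts each. Of these, 10.7% changed by over 1.5-fold in either direction, among them 2 of the 3 Mir181 pairs, and 27.2% moved by over 1.2-fold toward the downstream gene in replicate 2, among them all 3. These ratios come from the same counts as the ratios between the hearts, so nothing is read from the counts of pairs. By the size of the change the Mir181 pairs ranked 3, 5 and 38. The pairs ranked 1 and 2, Mir193b with Mir365-1 and Mir26a-2 with Mir546, were named because of their values and each held a gene with 10 or 11 counts. Of the 80 pairs with 100 or more counts of each gene, 5 passed 1.5-fold, 1 of them Mir181b-2 with Mir181a-2.

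**Figure D5:**
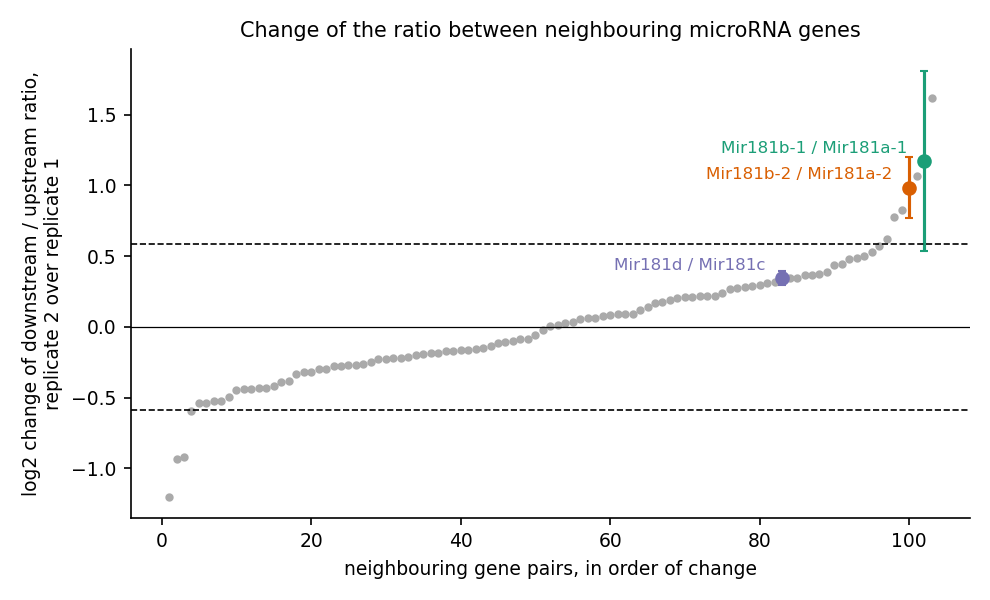
Log2 change of the downstream over upstream ratio, replicate 2 over replicate 1, for 103 neighbouring microRNA gene pairs in order of change (x axis), with 0.5 counts added, coloured 95% counting intervals for the Mir181 pairs and dashed lines at 1.5-fold. All 3 Mir181 pairs lie above 0, at 2.25-fold, 1.98-fold and 1.27-fold, on the right of the plot.

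The Mir30 family and the Mir23, Mir27 and Mir24 clusters also carry copies of a mature arm in more than 1 cluster. Of the 6 Mir30 genes 0 passed 1.5-fold between the hearts, with ratios of 0.811 to 1.249, and of the 5 counted genes of the Mir23, Mir27 and Mir24 clusters 0 passed, with ratios of 0.872 to 1.18. All of them had over 100 counts, and of all genes with 100 or more counts 3.27% passed, so nothing is read from these numbers. By the arm classes above, only Mir30c-1, Mir30c-2 and Mir24-2 carried a copied arm, while Mir30b and Mir30d had no mature entry. Mir30c-1 and Mir30c-2, which share miR-30c-5p, had ratios of 1.01 and 1.249, and Mir24-2 had 0.923. Their levels lay at 106 ± 0.456, 64.4 ± 10.1 and 570 ± 32.4 CPM. Of the Mir181 genes, Mir181a-2 lay nearest in level to the Mir30c genes and Mir181b-2 nearest to Mir24-2. The difference between these families and Mir181 was not tested.

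Markers of other cell types were also counted. In the leukocyte list 3 of 4 markers were counted (Mir223, Mir150 and Mir155), with a summed level of 554 CPM in replicate 1 and 595 CPM in replicate 2, a ratio of 1.07. Within it the members went different ways, with ratios of 0.968 for Mir223, a myeloid microRNA, 0.913 for Mir150, a microRNA of mature lymphocytes, and 1.49 for Mir155, a microRNA of activated lymphocytes. In the neuron list 5 of 6 were counted, with 0.941 and 0.917 CPM together, and 4 of these, Mir9-2 and the 3 Mir124a genes, were at 0. The arms of the Mir9 genes occur in other hairpins and the Mir124a genes are copies of each other, so several-place reads are missing from these counts and the zeros do not measure neuron content. The endothelial list held 1 gene, Mir126a, whose ratio was 0.848. The smooth muscle list, at 0.932, was also lower in replicate 2, with 0.931 for Mir143 and 0.992 for Mir145a. The hepatocyte marker Mir122 stood at 1.24 and the skeletal muscle marker Mir206 at 1.45. The erythroid list summed to 1043 and 1308 CPM, but its genes went opposite ways, with ratios of 1.33 for Mir451a and 0.636 for Mir144. The cardiomyocyte list stood at 1.02, but its genes also went different ways. The ratios were 0.777 for Mir208a, 1.06 for Mir208b and 0.949 for Mir499. The part of these cell types in the Mir181 ratios was not tested.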

How the data were processed

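Small RNA of 2 newborn mouse hearts was sequenced, 1 library each. The deposited tables give whole-number counts per gene without normalization, and per the text files that accompany them the authors used build mm10 with GENCODE M4. Aligner, counter and trimming: not given in the sources used here. The tables have no header. From the values, the first count column is the sum of the other 2, and since the second held 92.9% and 92.8% of gene counts it was read as sense and the last as antisense. Totals hold gene rows only. Of all reads 35.9% and 34.6% matched several places, 12.6% and 15.5% were unmapped, 1.93% and 2.28% fell in no gene and 0 were ambiguous.

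Names and positions were taken from GENCODE M21, also mm10 (a match for 1894 of 1973 identifiers, the 79 others had 0 counts), without the version of the identifier, which for Mir181c differs between releases. Sequences came from RefSeq GRCm38.p6, and the arms were searched for in GENCODE M21 microRNA transcripts. Shares carry exact Clopper-Pearson 95% intervals, ratios between hearts the matching binomial interval, and changes of neighbour ratios a log-normal interval. Ratios for calls used 0.5 added counts, and the code for them was checked on simulated counts with known folds. No p-value was computed. The members and lists were chosen with earlier results of these data known, and the neighbour ratios, the copied-arm classes, the fold of 1.2 and the per-nucleotide order were added after the data were seen. Named genes were the 6 members, the Mir30 and Mir23, Mir27 and Mir24 genes, the cell type markers and the nearest gene in level to each member. Alternatives were counts of both strands, TMM factors (edgeR 4.0.16), DESeq2 1.42.0 size factors, other totals, added counts, folds and count minimums, thinning and single libraries. Other tools were Python 3.11.15 with SciPy 1.17.1, NumPy 2.4.6, matplotlib 3.10.9 and pandas 2.3.3, and R 4.3.3.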

Additional observations from a re-analysis of the deposited data

How the results depend on the processing

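The family share depended on what it was divided by. It was 0.504% of gene counts, 0.581% without Mir126a, the most abundant gene, 0.283% with several-place reads added to the total and 0.227% of all reads. Single libraries gave 0.478% to 0.530%. For the cluster shares and the ratios within clusters, counts of both strands gave the same values because the opposite strand had 0 counts, and with 2 libraries leaving out either one is no check of stability: the chromosome 2 share was 8.70% in one and 14.0% in the other. Of 48 alternative ratios between hearts, 44 lay within the counting interval. Mir181c had log2 ratios from -0.05 to 0.01 over its 8 alternatives, with no direction of its own, while Mir181b-2 kept 0.88 to 0.94, Mir181d 0.30 to 0.35 and Mir181a-1 -0.31 to -0.24. Mir181b-1 ranged from 0.70, with 10 added counts, to 0.96. The number of members over 1.5-fold was 2 under all 8 alternative counts and scalings, 3 at 1.2-fold (a fold added after the data were seen) and 0 at 2-fold. The background share of genes over 1.5-fold was 13.8%, but 3.27% with 100 or more counts and 38.8% with 1 or more. Of the Mir181 neighbour pairs over 1.5-fold, 1 remained within 1 kb and 1 with 100 or more counts of each gene. No paired analysis was possible because there is 1 group. Leaving out a library gives no ratio between hearts. Depth limits Mir181b-1 most, at 28 and 64 counts.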
